A study of Homo sapiens with 18 samples.

Results

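Respiratory chain subunit genes were taken as the 69 of 19901 genes in the count table whose symbols carry the family names of nuclear-encoded subunits of complexes I to IV. Complex I gave 39 genes (NDUFA, NDUFB, NDUFC, NDUFS or NDUFV followed by a number), complex II gave 4 (SDHA to SDHD), complex III gave 9 (UQCR) and complex IV gave 17 (COX4 to COX8). The rule reads symbols alone and no measured value, though it was chosen with earlier results of these data known. Of the 69, 65 had enough reads to be tested, all 39, 4 and 9 of complexes I, II and III and 13 of complex IV.

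The respiratory chain sits in the inner mitochondrial membrane and burns the electrons that glucose, amino acids and fatty acids yield. Complex I takes electrons from NADH and complex II from succinate, both hand them to ubiquinone, complex III passes them on to cytochrome c, and complex IV gives them to oxygen. Complexes I, III and IV pump protons on the way, and ATP synthase draws on the resulting gradient. Complex II is encoded in the nucleus alone, whereas the catalytic core of complex IV and parts of complexes I and III come from mitochondrial DNA.

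The study asked how hepatocyte growth factor (HGF), the ligand of the receptor tyrosine kinase Met, acts on glucose metabolism in head and neck squamous cell carcinoma. Poly(A) mRNA was sequenced from 3 established lines, Detroit 562 (a metastasis of a pharyngeal tumor, taken from a pleural effusion), FaDu (hypopharynx) and SCC-9 (tongue). Each line had 3 libraries of untreated cells (control) and 3 of cells given 50 ng/ml HGF for 16 h per the sample records, while the series record names 48 h. The medium was MEM-α for Detroit 562 and FaDu, whereas SCC-9 was kept in hydrocortisone-supplemented DMEM F12, so line and medium cannot be told apart. Each line stands for 1 tumor and carries no engineered allele. The values are raw counts, given below as CPM, each count scaled to a fixed library total after TMM normalization. A CPM value is a share of the counted mRNA, so that fewer cells, less RNA per cell and more of other mRNAs cannot be told apart.

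Total counts ranged from 35304770 to 44003970 per library, and the subunit genes held 0.476 to 0.674% of them. All 8 markers of squamous epithelium were counted in every group, with summed levels of 2507 to 11556 CPM. Summed levels were 3.41 to 99.4 CPM for 6 fibroblast markers, 17.0 to 57.9 CPM for 5 leukocyte markers and 0.487 to 8.34 CPM for 3 endothelial markers. In Detroit 562, DCN and COL3A1 (fibroblast) had no count in the HGF libraries, and PDGFRB had none in any of the 6 libraries. In Detroit 562 the summed fibroblast markers ran from 29.8 to 54.3 CPM in control and from 15 to 27.6 CPM with HGF, and 2 of the 3 tested fell. There the summed leukocyte markers ran from 20.3 to 40.5 CPM in control and from 37.4 to 56.1 CPM with HGF, and the 1 tested rose (log2 0.66). With HGF in Detroit 562, 2 of 8 squamous and 1 of 3 endothelial markers also fell. The part of these other markers in the results was not tested.

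In all 3 lines the common subunits of every complex were transcribed, and the tissue-restricted isoforms were at or near 0 except COX6B2 and COX7B2 in SCC-9. Levels were set against each other per kilobase of the gene's canonical transcript, as the mean over 18 libraries. Reads were counted over the whole gene, so these values and their order depend on the transcript taken. NDUFC2 and NDUFC2-KCTD14, with near-identical counts, stood at 46.3 and 190 CPM per kb. The highest were COX4I1 at 337 CPM per kb, COX8A at 335 and COX6A1 at 303, all of complex IV. COX8A and COX6A1 each have an overlapping gene on their strand with near-identical counts. In complex I the highest was NDUFV1 at 237 CPM per kb, the flavoprotein subunit that binds NADH. In complex III it was UQCRH at 234, the hinge protein that meets cytochrome c, and in complex II SDHA at 105, the flavoprotein that oxidizes succinate. The median subunit of complex IV lay at 135 ± 20.2 CPM per kb (SD, n = 3) in untreated Detroit 562, 142 ± 9.98 in FaDu and 149.5 ± 7.30 in SCC-9. For complex I these medians were 73.5 ± 4.52, 65.6 ± 1.63 and 56.7 ± 2.45 CPM per kb.

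Complex IV has subunits with a widespread and a restricted isoform, and most of the restricted ones took almost no reads. COX4I2 (lung isoform) reached at most 3 counts in any library, COX6A2 and COX7A1 (heart and muscle isoforms) at most 1 and 2, and COX8C (testis) at most 4; these were the 4 genes not tested. Against them, COX4I1 did not fall below 198 CPM and COX6A1 not below 102 CPM in any library. The testis isoforms COX6B2 and COX7B2 stood above this floor in SCC-9. COX6B2 had 5.53, 7.87 and 5.38 CPM in the 3 untreated SCC-9 libraries (773 counts in all), against 7 counts in all in untreated Detroit 562 and 11 in untreated FaDu. It shares its strand with an overlapping gene. COX7B2 had 1.27, 1.35 and 1.27 CPM in untreated SCC-9 (160 counts), against 6 and 14 counts in the other untreated groups. No untreated library of Detroit 562 or FaDu overlapped SCC-9 for either gene. Both had few counts in those lines and passed the read filter through SCC-9, so this gap is no separate support. Per kilobase, COX6B2 in untreated SCC-9 stood at 4.00 CPM against 159.7 CPM for its widespread partner COX6B1. NDUFA4L2, a paralog of NDUFA4 known as a hypoxia-induced gene, went the other way. It had 1.18, 0.896 and 0.646 CPM in untreated Detroit 562, 0.499, 0.653 and 0.399 in FaDu, and 8 counts in all in SCC-9. NDUFA4L2 passed the read filter through the other lines, so its gap is no separate support either.

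**Figure D1:**
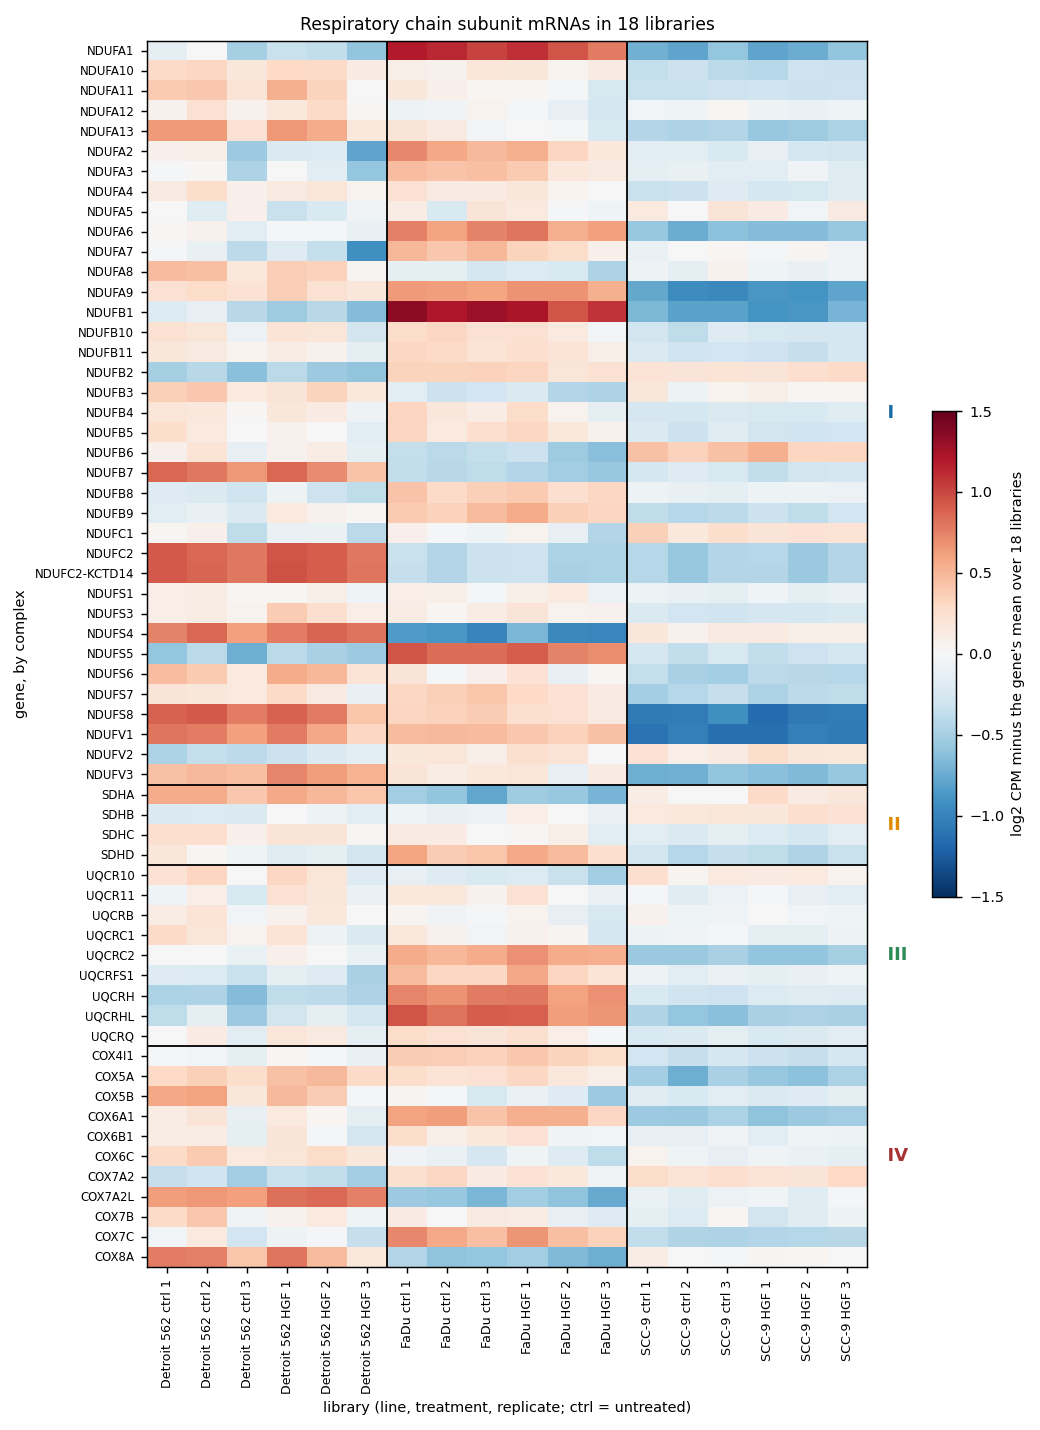
Heat map of 61 tested subunit genes (vertical axis, by complex I to IV) in 18 libraries (horizontal axis), as log2 CPM minus the gene's own mean over the libraries. The columns of a line look alike with and without HGF, and the colours change from line to line; 4 tested genes, among them COX6B2, COX7B2 and NDUFA4L2 with few counts, are not drawn.

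HGF left most of these mRNAs within a narrow band. Calls needed a Benjamini-Hochberg adjusted p under 0.1 in the quasi-likelihood test of edgeR and a log2 fold change reaching 0.4 in size. With these thresholds 0 of 65 subunit genes were called in Detroit 562, where 17.9% of all 15475 tested genes were. In FaDu 0 of 65 were called with 0.0258% of all genes, in SCC-9 0 of 65 with 0.0%, and for the mean effect over the lines 0 of 65 with 6.89%. This fit held no replicate term, and it called so few genes in FaDu and SCC-9 that 0 members there says little. Unadjusted p values fell below 0.05 for 8, 1, 1 and 6 members, and DESeq2 likewise called 0 in each comparison. The 95% interval of the log2 fold change lay wholly within 0.4 on either side of 0 for 62 of 65 genes of SCC-9, 54 of FaDu and 53 of Detroit 562. For the other 3, 11 and 12 genes, a change of 0.4 was not excluded at this depth and number of libraries. For SCC-9 the median log2 fold change was 0.00, for FaDu -0.09 and for Detroit 562 -0.05, beside 0.00, 0.00 and -0.01 over all genes. Summed over the 69 genes, the level was 6471 ± 438 CPM in control and 6326 ± 562 with HGF in Detroit 562 (SD, n = 3), 6512 ± 185 and 6238 ± 428 CPM in FaDu, whereas SCC-9 had 4642 ± 103 and 4663 ± 60.4 CPM. In each line the control and HGF libraries overlapped. A call in Detroit 562 appeared on leaving out 1 library, NDUFA2 (-0.45) and COX7B2 (1.88, from few counts) without control replicate 3, and NDUFA7 (-0.44) without HGF replicate 1.

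**Figure D2:**
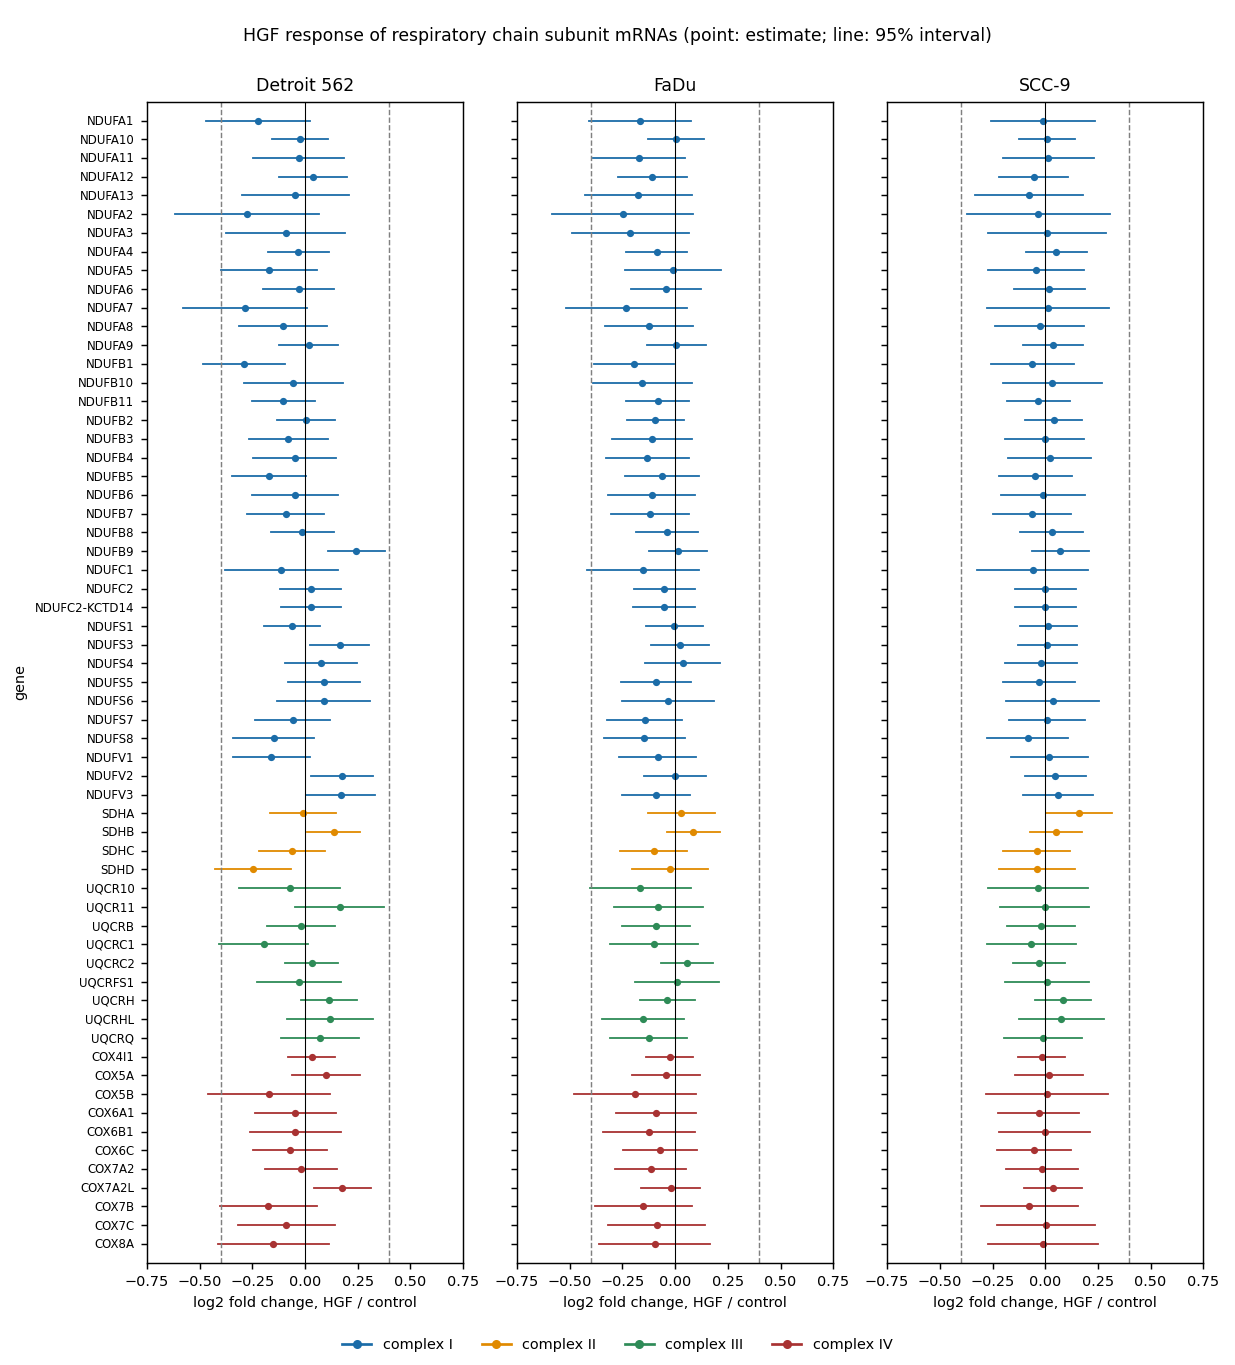
Log2 fold change, HGF over control, of 61 subunit genes (vertical axis) in each line (panels), with points for the estimate, lines for the 95% interval and colours for the complex. Dashed lines mark 0.4 in either direction, and every drawn point lies between them. In SCC-9 the drawn points run from -0.08 to 0.16. Estimates outside the lines belong to genes not drawn, among which COX6B2, COX7B2 and NDUFA4L2 have few counts. Over all 65 tested genes the estimates ran from -1.04 to 0.932 in Detroit 562, -0.344 to 0.767 in FaDu and -0.409 to 0.172 in SCC-9.

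Without the minimum fold change, 6 of 65 members passed in Detroit 562, where 34.1% of all genes did. Of these, 4 rose and 2 fell, beside 16.9% and 17.2% of all genes. NDUFB9, an accessory subunit of complex I, had 135, 139.9 and 131 CPM in control and 168, 158 and 154 CPM with HGF. The groups did not overlap, and the log2 fold change was 0.24 ± 0.06 (SE; adjusted p = 0.0131). COX7A2L, which takes part in joining complexes III and IV into supercomplexes, had 116, 118 and 115 CPM in control and 133, 135 and 127 with HGF, a log2 fold change of 0.18 (adjusted p = 0.0541). NDUFV2, an iron-sulfur subunit of the NADH-oxidizing module, and NDUFS3, a core subunit of complex I, rose by 0.17 and 0.16 on the log2 scale (adjusted p = 0.0761 and 0.0771).

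NDUFB1, a small accessory subunit of complex I, had 26.1, 27.6 and 22.5 CPM in control Detroit 562 and 20.7, 22.5 and 19.1 with HGF. It fell by 0.29 ± 0.09 on the log2 scale (SE; adjusted p = 0.0314), and the highest HGF and lowest control values met at 22.5 CPM. SDHD, which anchors complex II in the membrane, had 108, 98.1 and 91.6 CPM in control and 84.7, 87.3 and 79.0 with HGF. Its groups did not overlap, and it fell by 0.25 ± 0.09 (adjusted p = 0.0445). SDHD overlaps another gene of the table on its strand with near-identical counts, so its reads cannot be assigned with certainty. The other complex II genes moved little here, SDHB by 0.14 (adjusted p = 0.103), SDHC by -0.06 and SDHA by -0.01.

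In FaDu and SCC-9, 0 of 65 passed the adjusted p in the fit without a replicate block. In FaDu the smallest p values belonged to NDUFB1 (log2 fold change -0.20, adjusted p = 0.609), NDUFS7 (-0.15, adjusted p = 0.644) and NDUFA7 (-0.23, adjusted p = 0.648). NDUFB1 there had 75.9, 69.5 and 73.5 CPM in control and 69.9, 57.7 and 63.4 with HGF. In SCC-9 the smallest p values belonged to SDHA, UQCRH and NDUFB9, each with an adjusted p of 1. SDHA had 291, 271 and 268 CPM in control SCC-9 and 329, 295 and 304 with HGF, a log2 fold change of 0.16 ± 0.07. Its groups did not overlap. Over the 3 lines together, NDUFB1 had a mean log2 change of -0.18 (adjusted p = 0.0259), NDUFB9 of 0.11 (adjusted p = 0.0489) and SDHB of 0.09 (adjusted p = 0.0704), all under the minimum. With NDUFS8 these were the 4 of 65 that passed without it, where 28.2% of all genes did (14% up and 14.2% down). In FaDu and SCC-9, 0 passed without it, beside 0.0258% and 0.0194% of all genes.

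Control and HGF libraries of the same number tended to deviate together, so changes were also read within same-numbered pairs. In FaDu 36 of 65 members were lower with HGF in 3 of 3 pairs, as were 23.3% of all genes, and 1 was higher, as were 20.0% of all genes. Detroit 562 had 20 lower (32.3% of all genes) and 17 higher (30.6%), and SCC-9 12 lower (24.6%) and 9 higher (23.9%). Complex I made up 23 of the 36 in FaDu. Over all 9 pairs of the 3 lines, 3 of 65 were lower every time and 0 were higher, with 8.42% and 7.7% of all genes. These were NDUFB7 of complex I, SDHC of complex II and UQCRC1, a core protein of complex III. UQCRC1 had 197, 184 and 167 CPM in control Detroit 562 and 186, 152 and 139 with HGF, 179.8, 168 and 156 in control FaDu and 169, 166 and 136 with HGF, and 153, 156 and 159.7 in control SCC-9 and 147, 147 and 153 with HGF. In each line its groups overlapped, and its mean log2 change was -0.12 ± 0.06 (SE; adjusted p = 0.147).

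Blocking on replicate number with the minimum kept, 0 of 65 were called in each line. Without the minimum the blocked fit passed 23 in Detroit 562 (8 up and 15 down, against 53.6% of all genes, 26.3% up and 27.3% down), 10 in FaDu (0 up and 10 down, against 17.4%, 7.5% up and 9.93% down), 1 in SCC-9 (5.29%) and 29 for the mean (6 up and 23 down, against 49.2%, 24.3% up and 25% down). The 10 in FaDu were 9 complex I genes and COX5B, with log2 changes of -0.25 to -0.14, and the 1 in SCC-9 was SDHA.

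The difference in HGF response between lines was called for 0 of 65 members in each of 3 comparisons, with 0.239% of all genes for Detroit 562 against FaDu, 0.924% against SCC-9 and 0.0% for FaDu against SCC-9. At an unadjusted p below 0.05 the counts were 3, 0 and 0, and DESeq2 called 0 in each. The blocked fit called 8, 8 and 0, against 19.1%, 26.9% and 1.32% of all genes. Of the 8 for Detroit 562 against FaDu, 7 were higher in Detroit 562 (10.1% of all genes higher, 8.98% lower), among them COX7A2L (0.20, adjusted p = 0.0419), whereas the 8 against SCC-9 were all lower in Detroit 562 (13.8% of all genes higher, 13.2% lower), among them NDUFA2 (-0.24, adjusted p = 0.0427).

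**Figure D3:**
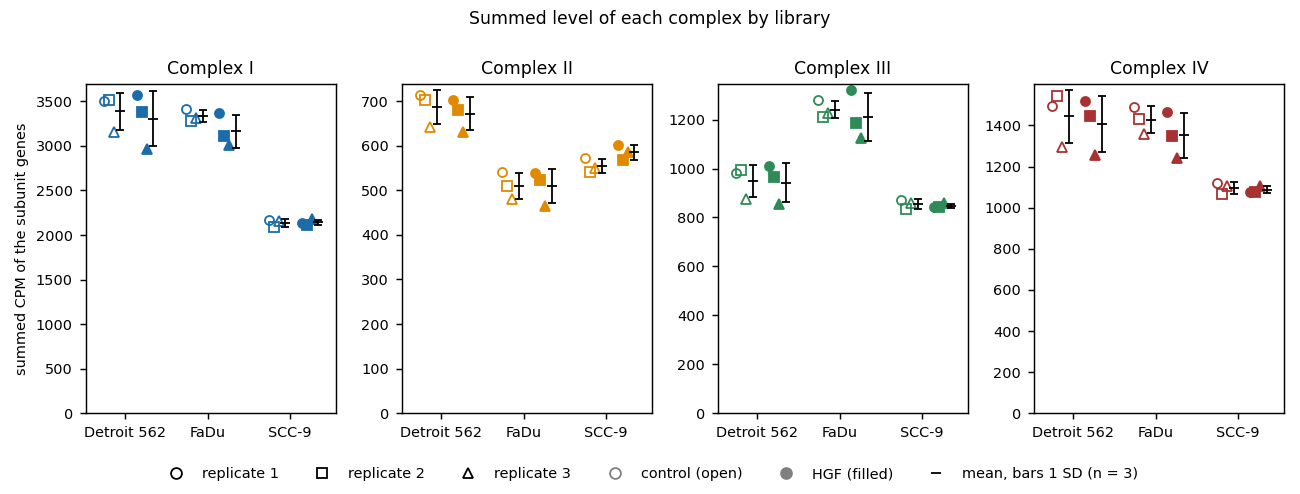
Summed CPM of the subunit genes of each complex (panels, vertical axis from 0) by line and treatment, with 1 symbol per library and a black bar for the mean ± 1 SD (n = 3). Complexes I and IV are lowest in SCC-9, complex II highest in Detroit 562 and complex III highest in FaDu, and control (open) and HGF (filled) libraries overlap in every line and complex.

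The lines themselves differed far more than HGF moved them, and the complexes did not rank the lines alike. The summed complex I level was 3389 ± 207 CPM in untreated Detroit 562 and 3335 ± 71.3 in FaDu but 2136 ± 42.2 in SCC-9 (SD, n = 3). For complex II it was 686 ± 38.2, 509.7 ± 29.6 and 554 ± 15.8 CPM, so that Detroit 562 stood above the rest. For complex III it was 951 ± 65.5, 1241 ± 36.1 and 855 ± 18.8 CPM, with FaDu above. For complex IV it was 1445 ± 130, 1427 ± 65.1 and 1097 ± 28.8 CPM. For complexes I and IV the libraries of Detroit 562 and FaDu overlapped. The complex I sum holds both NDUFC2 and NDUFC2-KCTD14, with near-identical counts, so it does not settle the order of these lines. Sums lean on the genes with most reads. For complexes II to IV the medians per kilobase did not give the order of the sums. Libraries of the 3 untreated lines overlapped in these medians, so they set no ranking. In untreated Detroit 562, FaDu and SCC-9 they were 65.3 ± 7.19, 58.9 ± 1.58 and 63.6 ± 4.79 CPM per kb for complex III. For complex II they were 87.2, 87.5 and 87.0. For complex IV the mean was highest in SCC-9, as given above, with overlapping libraries.

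Between untreated lines, 36 of 65 members were called for Detroit 562 against FaDu (16 higher and 20 lower in Detroit 562, against 61.0% of all genes called), 32 for Detroit 562 against SCC-9 (27 higher and 5 lower, against 65.4%) and 41 for FaDu against SCC-9 (34 higher and 7 lower in FaDu, against 64.2%). Of all genes, 31.2% were higher and 29.8% lower in the first comparison, 31.4% and 33.9% in the second and 30.7% and 33.5% in the last. The shares of members called, 55.4, 49.2 and 63.1%, thus did not exceed the background. Without the minimum, 55 of 65 passed for Detroit 562 against SCC-9, beside 80.2% of all genes. The median log2 difference was -0.08, 0.36 and 0.43, and that of all genes -0.01, -0.03 and -0.02. For complex I, 20 of 39 were higher and 2 lower in Detroit 562 than in SCC-9, and 24 were higher and 2 lower in FaDu than in SCC-9. All 3 untreated SCC-9 libraries lay below the 6 others for 28 of 65 members (43.1%), as for 23.2% of all genes, and above them for 5 (7.69%), as for 26.6% of all genes. The 28 held 21 of the 39 complex I genes, 2 of 4 of complex II (SDHC and SDHD), 1 of 9 of complex III (UQCRC2) and 4 of 13 of complex IV. The 5 included COX6B2 and COX7B2, which passed the read filter through SCC-9. The 21 of complex I included NDUFA4L2, which had few counts in SCC-9 and passed the filter through the other lines. In both comparisons with SCC-9, NDUFA4L2 is also among the members called higher, and COX6B2 and COX7B2 among those called lower. For these genes the gap is no separate support. FaDu lay above the others for 22 members (21.6% of all genes) and below them for 8 (20.9%), and Detroit 562 above for 18 (23.5%) and below for 8 (22.0%).

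The largest complex I differences between Detroit 562 and SCC-9, leaving aside NDUFA4L2, were in NDUFS8 and NDUFV1, an iron-sulfur subunit and the flavoprotein subunit. NDUFV1 had 569.6, 554 and 498 CPM in untreated Detroit 562, 452, 458 and 455 in FaDu, against 151, 159.6 and 149 in SCC-9. NDUFS8 had 242, 248 and 223 CPM in Detroit 562, 164, 167 and 172 in FaDu, against 63.1, 63.4 and 69.5 in SCC-9. The 3 lines did not overlap for either gene. NDUFS8 was 3.64-fold and NDUFV1 3.53-fold higher in Detroit 562 than in SCC-9 (log2 1.86 ± 0.09 and 1.82 ± 0.09, SE; adjusted p = 1.42e-11 and 1.01e-11). The genes lie close together on chromosome 11 of GRCh38, NDUFV1 at chr11:67606852-67612535 and NDUFS8 at chr11:68030617-68036644.

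NDUFB1 marked FaDu, with 75.9, 69.5 and 73.5 CPM against 26.1, 27.6 and 22.5 in untreated Detroit 562 and 18.8, 17.2 and 17.2 in SCC-9. It was 4.11-fold higher in FaDu than in SCC-9 (log2 2.04 ± 0.09; adjusted p = 6.35e-12) and 2.87-fold lower in Detroit 562 than in FaDu. NDUFA1, an accessory subunit encoded on the X chromosome, followed it, with 129, 123 and 114 CPM in FaDu, 50.8, 56.3 and 39.7 in Detroit 562 and 34.2, 32.6 and 37.5 in SCC-9 (FaDu against SCC-9, log2 1.81 ± 0.12; adjusted p = 4.71e-10). NDUFA9 was likewise 2.85-fold higher in FaDu than in SCC-9. Overlapping genes on its strand had 0.837 and 0.702 times its counts (medians over libraries), so its reads cannot be assigned with certainty. NDUFS4, an accessory subunit needed for the stability of complex I, was high in Detroit 562 at 44.4, 48.1 and 40.5 CPM and low in FaDu at 14.7, 14.4 and 13.3 CPM, with SCC-9 between them at 29.8, 27.7 and 29.0. It was 3.13-fold higher in Detroit 562 than in FaDu (log2 1.65 ± 0.08; adjusted p = 2.31e-11). NDUFC2 had 172, 166 and 157 CPM in Detroit 562, 72.0, 66.9 and 72.9 in FaDu, against 67.6, 61.3 and 67.3 in SCC-9, and was 2.34-fold higher in Detroit 562 than in FaDu. The read-through gene NDUFC2-KCTD14, itself a member, shares its reads, so both genes hold the same reads in every sum and count of members.

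Some complex I genes were low in Detroit 562 or high in SCC-9. NDUFS5 was low in Detroit 562, with 57.3, 64.5 and 51.4 CPM against 164, 153 and 153 in FaDu (log2 -1.44). NDUFB2 and NDUFV2 were lower in Detroit 562 than in SCC-9, by log2 differences of -0.72 and -0.56. NDUFV2 had 55.8, 60.2 and 59.0 CPM in Detroit 562 and 89.8, 83.0 and 85.2 in SCC-9, without overlap, whereas its partner NDUFV1 in the NADH-oxidizing module had the opposite order. NDUFB6 was highest in SCC-9, with 45.7, 42.8 and 45.9 CPM against 26.2, 25.4 and 26.3 in FaDu (log2 -0.79).

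NDUFS1, NDUFS3 and NDUFS7 are further nuclear core subunits of complex I. NDUFS1 had 148, 149 and 141 CPM in Detroit 562, 148, 147 and 136 in FaDu, against 130.3, 128 and 124 in SCC-9. NDUFS3 had 128, 129.8 and 124, then 129, 122 and 129.9, then 103, 98.5 and 97.8 CPM in the same order. Neither was called in any comparison of lines. NDUFS7 had log2 differences of -0.19 for Detroit 562 against FaDu, 0.60 for Detroit 562 against SCC-9 and 0.79 for FaDu against SCC-9, of which the comparisons with SCC-9 were called. NDUFA4, named for complex I and since found with complex IV, had 101, 111 and 96.9 CPM in Detroit 562, 108, 101 and 101 in FaDu, against 73.0, 73.5 and 80.9 in SCC-9.

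In complex II, the 4 subunits did not rank the lines alike. SDHA had 396, 395 and 357 CPM in untreated Detroit 562, 188, 179 and 157 in FaDu, against 291, 271 and 268 in SCC-9, and was 1.58-fold lower in FaDu than in SCC-9 (log2 -0.66 ± 0.07; adjusted p = 4.20e-07). SDHD was highest in FaDu, with 144, 125 and 127 CPM in FaDu, 108, 98.1 and 91.6 in Detroit 562 and 79.5, 71.1 and 75.4 in SCC-9. SDHB, the iron-sulfur subunit, was highest in SCC-9 at 106, 107 and 108 CPM and lowest in Detroit 562 at 82.5, 83.3 and 82.2 CPM. Its differences, at log2 -0.37 at most in size, stayed under the minimum.

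In complex III, UQCRH and UQCRC2 were higher in FaDu than in either other line. UQCRH had 195, 187 and 202 CPM in untreated FaDu against 84.3, 85.3 and 74.6 in Detroit 562 and between 94.3 and 100.3 in SCC-9. Detroit 562 was 2.39-fold below FaDu (log2 -1.26 ± 0.06; adjusted p = 2.28e-11). UQCRHL, an intronless copy of UQCRH whose reads cannot be told apart from it with certainty, had a log2 difference of -1.23. UQCRC2, a core protein, had 349, 337 and 350.2 CPM in FaDu, 239.6, 236 and 221 in Detroit 562 and 162, 162 and 169.8 in SCC-9, with no overlap between lines. UQCRFS1, the Rieske iron-sulfur protein, had at most 105 CPM in Detroit 562, 167, 149 and 148 in FaDu, against 114, 107 and 112 in SCC-9. UQCR10, UQCR11, UQCRB and UQCRC1 were called in 0 of the 3 comparisons of lines.

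In complex IV, COX8A was high in Detroit 562 at 265, 263 and 209 CPM, lower in SCC-9 at 169, 157 and 153, and lowest in FaDu at 115, 102 and 104. It was 2.29-fold higher in Detroit 562 than in FaDu (log2 1.20 ± 0.13; adjusted p = 2.14e-07), with the reservation that an overlapping gene shares its reads. COX7A2L was 2.35-fold higher in Detroit 562 than in FaDu, at 116, 118 and 115 against 51.3, 50.6 and 46.9 CPM, with 70.0, 66.4 and 70.5 CPM in SCC-9. COX6A1, COX7C, COX4I1 and COX5A were higher in FaDu than in SCC-9, by 1.08, 1.01, 0.66 and 0.80 on the log2 scale. COX6A1 had 236, 239 and 209 CPM in FaDu, against 107, 105 and 111 in SCC-9, and COX7B, called in 0 comparisons of lines, had 46.3, 44.3 and 52.0 CPM in SCC-9, 55.5, 50.9 and 56.1 CPM in FaDu and 62.3, 67.2 and 49.1 CPM in Detroit 562. COX7A2 was lowest in Detroit 562, with 58.3, 60.6 and 51.6 CPM against 90.3, 85.3 and 88.4 in SCC-9.

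Because NDUFV1 and NDUFS8 are near neighbours and moved alike, the line differences were also set beside those of other genes on the same stretch of chromosome. For each of 61 members with at least 5 tested non-member genes within 1 Mb (median of 19 neighbours), the log2 difference of the member was set against the median of its neighbours. For Detroit 562 against FaDu the Pearson correlation was 0.878 and Spearman's 0.863 over the 61 genes, and 58 had the sign of their neighbours (95.1%). Over 14188 other genes these were 0.34, 0.42 and 66.0%. The other genes were not matched to the members in level, and members were left out as neighbours for members only. The sets are thus unlike. For Detroit 562 against SCC-9 the members gave 0.482, 0.735 and 75.4% (others 0.309, 0.415 and 66.7%), and for FaDu against SCC-9 0.425, 0.614 and 63.9% (others 0.303, 0.389 and 65.3%). Both comparisons hold 2 genes with few counts and large differences. COX6B2 had -6.63 and -6.10 beside neighbour medians of -0.68 and 0.05, and NDUFA4L2 had 3.75 and 2.93 beside 0.33 and 0.29. Pearson's coefficient leans on such values more than Spearman's, and their part was not tested. The points share libraries, and members near each other share neighbours, so these are descriptions. With 5 Mb, a window chosen after seeing the data, Pearson values were 0.790, 0.436 and 0.411 over 65 members.

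Single genes lay near their neighbours or far from them, and those named here were chosen after their values were seen. NDUFS8 had 37 tested neighbours, all 37 higher in Detroit 562 than in SCC-9, with a median log2 difference of 1.73 beside its own 1.86. NDUFV1 had 42, all 42 higher, with a median of 1.55 beside 1.82. For FaDu against SCC-9, NDUFA9 had 10 of 10 neighbours higher in FaDu (median 1.75 beside 1.51), NDUFA1 had 18 of 19 (median 1.36 beside 1.81) and NDUFB1 had 12 of 15 (median 1.52 beside 2.04). NDUFS4, at chr5:53560633-53683340, had all 7 neighbours higher in Detroit 562 than in FaDu (median 1.68 beside 1.65). SDHA differed from its stretch, with a log2 difference of 1.13 between Detroit 562 and FaDu beside a median of 0.19 over 14 neighbours. For FaDu against SCC-9 the neighbours of several members went the other way. UQCRFS1 had 0 of 5 neighbours with its sign (median -0.91 beside 0.48), COX6B1 had 7 of 51 (median -0.69 beside 0.27), SDHD had 7 of 20 (median -0.24 beside 0.81) and NDUFA2 had 30 of 79 (median -0.996 beside 0.78). Copy number was not measured in these files.

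**Figure D4:**
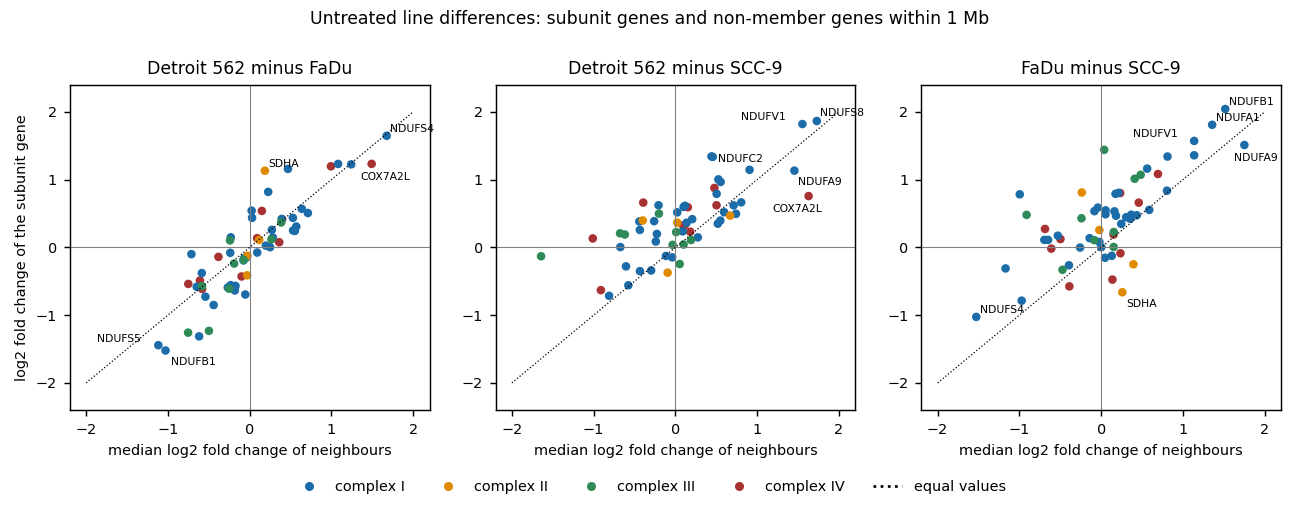
Log2 difference of each subunit gene (vertical axis) against the median log2 difference of the non-member genes within 1 Mb (horizontal axis), for each pair of untreated lines (panels), coloured by complex; the dotted line marks equal values. The points run along the dotted line most closely for Detroit 562 against FaDu, and NDUFS8, NDUFV1, NDUFS4, NDUFB1 and NDUFA9 lie near it at the ends. Members with a log2 difference over 2.5 in size are not drawn, and of these COX6B2 and NDUFA4L2 are in the correlations of the text.

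A start-site sequence of 300 bases (250 before and 50 after the start, RefSeq, GRCh38.p14) was at hand for 56 of the 69 genes. Binding motifs of NRF1, of ETS factors such as GABPA and of YY1, which are known to act at promoters of respiratory genes, were searched there on both strands. The NRF1-type motif (GCGCA, 1 base of any kind, then GCGC) was in 13 of 56 windows (23.2%) against 5.78% of all 35116 promoters. The ETS-type motif CCGGAAG was in 15 (26.8% against 10.3%) and the YY1-type motif (AA, 1 base of any kind, then ATGGCGG) in 13 (23.2% against 2.14%). At least 1 of the 3 was in 32 of 56 (57.1%) against 16.3%, and matches of different motifs did not overlap. The members gave 1 window per symbol, whereas the 35116 promoters were not reduced to 1 per symbol or limited to protein-coding or expressed genes. The shares thus come from unlike sets. A match is a string of letters and no proof of binding. The 4 stretches below come from genes described here, each from the bases before the start with annotated UTR bases left out, and the capitals mark the matches.

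NDUFS8: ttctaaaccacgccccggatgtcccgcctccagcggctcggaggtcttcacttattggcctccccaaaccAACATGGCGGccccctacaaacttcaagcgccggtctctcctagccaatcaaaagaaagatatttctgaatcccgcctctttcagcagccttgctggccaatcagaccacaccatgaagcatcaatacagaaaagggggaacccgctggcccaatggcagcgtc
SDHB: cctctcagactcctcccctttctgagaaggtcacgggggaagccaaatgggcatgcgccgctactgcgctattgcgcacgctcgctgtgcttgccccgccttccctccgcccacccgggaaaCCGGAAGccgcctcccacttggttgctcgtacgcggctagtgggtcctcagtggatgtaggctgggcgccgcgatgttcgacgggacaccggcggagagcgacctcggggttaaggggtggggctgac
UQCRC1: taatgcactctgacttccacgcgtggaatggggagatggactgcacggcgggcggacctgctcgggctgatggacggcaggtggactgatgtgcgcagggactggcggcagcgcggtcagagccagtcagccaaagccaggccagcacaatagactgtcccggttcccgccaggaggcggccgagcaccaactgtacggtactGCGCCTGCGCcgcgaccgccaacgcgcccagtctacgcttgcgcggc
COX6B1: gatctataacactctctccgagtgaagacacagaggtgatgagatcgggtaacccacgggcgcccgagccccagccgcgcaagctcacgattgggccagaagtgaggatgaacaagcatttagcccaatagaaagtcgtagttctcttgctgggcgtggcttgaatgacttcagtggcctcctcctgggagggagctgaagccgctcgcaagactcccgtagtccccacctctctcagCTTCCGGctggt

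The NDUFS8 stretch (chr11:68030431-68030664, plus strand) holds a YY1-type match, and 55.6% of its 234 bases are G or C. The SDHB stretch (chr1:17054033-17054282, minus strand) holds an ETS-type match on the gene's strand. The UQCRC1 stretch (chr3:48609647-48609896, minus strand) holds an NRF1-type match on the opposite strand, and the COX6B1 stretch (chr19:35648073-35648322, plus strand) an ETS-type match on the opposite strand close to the start. SDHB and UQCRC1 each also hold a YY1-type match in the full window, outside the printed bases. The last 3 stretches have 24, 26 and 14 CG pairs, and NDUFS8 has 11. UQCRC1 was among the 3 genes lower with HGF in all 9 pairs, NDUFS8 was among the genes that differed most between lines, and COX6B1 was called in no comparison of HGF or lines.

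The libraries were also compared by replicate number, with calls resting on the adjusted p alone. In the libraries numbered 3, compared with those numbered 1 within each line and treatment, 39 of 65 members were lower and 0 higher, against 15.4% of all genes lower and 33.4% called in either direction (adjusted p below 0.1, no minimum). These were 23 of 39 genes of complex I, 3 of 4 of complex II, 6 of 9 of complex III and 7 of 13 of complex IV. Contrasts of single lines in the same fit were chosen after seeing the data. There 41 of 65 were lower in Detroit 562 (19.4% of all genes), 32 in FaDu (14.1%) and 0 in SCC-9 (2.13%). In SCC-9 0 were higher too, and DESeq2 gave 37 for the pooled comparison. Of the tested markers, 2 of 3 fibroblast, 3 of 3 endothelial and 3 of 8 squamous genes were lower in number 3 too, the 1 tested leukocyte gene was higher, and their part was not tested. The labels give no date or batch beside the number.

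NDUFA2, a small subunit of complex I, had the smallest p. It had 31.4, 31.9 and 20.5 CPM in control Detroit 562, 25.8, 26.1 and 17.4 with HGF, 49.1, 44.9 and 41.8 in control FaDu and 43.7, 37.3 and 33.3 with HGF. Its log2 difference was -0.34 (adjusted p = 5.68e-05), and in SCC-9 alone it was -0.11 (adjusted p = 0.508). COX5B and COX8A of complex IV differed by -0.26 each (adjusted p = 0.000126 and 0.000497). All 3 of these HGF-treated Detroit 562 values were lowest in the library numbered 3. Over the groups, 12 of 65 members (18.5%) were lower in number 3 than in number 1 in 6 of 6 groups, as were 5.42% of all genes.

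**Figure D5:**
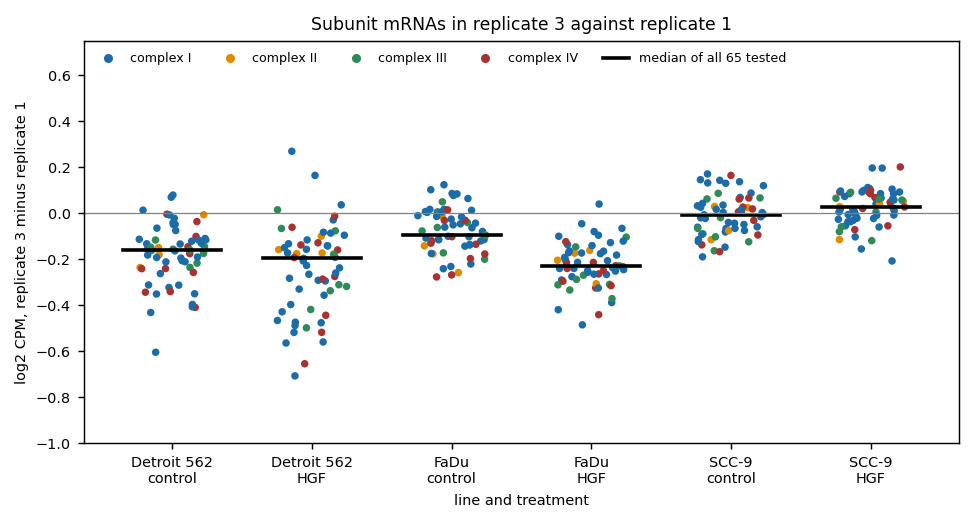
Log2 CPM of replicate 3 minus replicate 1 (vertical axis) for 61 subunit genes in each line and treatment (horizontal axis), coloured by complex, with a bar at the median of all 65 tested. The medians for control and HGF are -0.01 and 0.03 for SCC-9, -0.09 and -0.23 for FaDu, and -0.16 and -0.20 for Detroit 562.

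The rest of the pathway was read from lists chosen by symbol. Among the 13 subunits encoded in mitochondrial DNA, 0 rose and 1 fell with HGF in Detroit 562, MT-CO1, the catalytic core of complex IV (log2 -0.61 ± 0.24, SE; adjusted p = 0.0763). The list's median there was -0.56. In FaDu and SCC-9 0 of 13 were called. These transcripts are read after poly(A) capture, and their share of a library varied from 0.836 to 2.43%. In Detroit 562 the share was 1.45, 1.51 and 1.84% in control and 1.06, 0.837 and 1.19% with HGF, without overlap. In FaDu and in SCC-9 the shares of control and HGF libraries overlapped. Between untreated lines, 6 of 13 were lower and 0 higher in FaDu than in SCC-9 (33.5% and 30.7% of all genes), 4 were lower and 1 higher in Detroit 562 than in SCC-9 (33.9% and 31.4%), and 0 were lower and 2 higher in Detroit 562 than in FaDu (29.8% and 31.2%). In number 3, 10 of 13 were higher and 0 lower than in number 1, beside 33.4% of all genes called in either direction. Of 18 ATP synthase genes, 0 were called with HGF in any line, 8 were higher and 0 lower in FaDu than in SCC-9 (30.7% and 33.5% of all genes), and 10 were lower and 0 higher in number 3 (15.4% of all genes lower). ATPase inhibitory factor was called with HGF in 0 lines. The carriers CYC1, CYCS and NDUFAB1 gave 0 calls with HGF as well.

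Assembly factors and regulators gave a few calls in Detroit 562 only among the 3 lines, though the difference between lines was called for 0 genes of each list. Of 13 complex I assembly genes 2 rose and 0 fell, NDUFAF4 by 0.59 (adjusted p = 0.00366) and NDUFAF2 by 0.42 (adjusted p = 0.00697). Of 19 complex IV assembly genes 1 rose and 0 fell, COA7 by 0.42 (adjusted p = 0.00630). Of 4 complex II and 5 complex III assembly genes, 0 were called. Of 13 tested regulators of mitochondrial gene expression 2 rose and 0 fell, ESRRA, a nuclear receptor that works with the PGC-1 coactivators, by 0.47 (adjusted p = 0.00382) and MYC by 0.43 (adjusted p = 0.00445). GABPA, an ETS-type factor named above, had a log2 change of -0.22 (adjusted p = 0.0778). Beside these, 17.9% of all genes were called in Detroit 562, and none of these lists had a larger share called. Without the minimum the counts in Detroit 562 were 6 up and 1 down of 13 regulators, 6 up and 0 down of 19 complex IV assembly genes, 2 up and 0 down of 13 complex I assembly genes and 1 up and 0 down of 4 complex II assembly genes, beside 16.9% up and 17.2% down of all genes. For the mean over the lines, 7 of 13 regulators rose and 0 fell without the minimum, beside 14% and 14.2% of all genes.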

How the data were processed

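mRNA was sequenced from 18 libraries, 3 each of untreated and HGF-treated Detroit 562, FaDu and SCC-9 cells. The authors prepared stranded poly(A) libraries and, per the submitters' processing notes, used bcl2fastq 2.20.0.422, cutadapt 1.16, STAR 2.5.2b on GRCh38.p12 and bedtools. The deposited values are raw counts of reads per gene extent and strand, without normalization, so a read in overlapping genes was counted for each. Of the 69 members, 16 overlap another gene of the table on their strand, and NDUFB8, COX8A, NDUFC2, SDHD, COX6A1, NDUFA11, NDUFA7 and NDUFA13 have near-identical counts with theirs. STAR ran with default parameters per the methods, and UQCRH and its intronless copy UQCRHL stay uncertain because near-identical copies can split reads.

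The tests used edgeR 4.0.16 under R 4.3.3 (filterByExpr on the 6 groups, TMM, quasi-likelihood test, Benjamini-Hochberg adjustment over 15475 genes), with 1 mean per line and treatment over all 18 libraries. Calls required an adjusted p under 0.1 together with a log2 fold change reaching 0.4 in size. Differences between responses and replicate 3 against 1 used the adjusted p alone. DESeq2 1.42.0, with and without its fold change prior, its size factors in edgeR, no filter, at least 50 counts in 3 libraries, no minimum fold change, a replicate block and each library left out were alternatives. Fits were tested on simulated data. Lengths are of canonical transcripts of GENCODE 44. Members and lists were chosen with earlier results of these data known. Genes named were the 5 largest called changes each way in a comparison (3 for replicates), the 3 smallest p where none was called, tissue isoforms with their general partners, core subunits of complexes I and III and all of complex II. Values of 1 core subunit are not reported here. COX7C, COX5A, COX7A2L under HGF, NDUFB7 and members behind small counts were picked after their values were seen.

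The numbers of the replicates come from the labels. Deviations from group means of same-numbered control and HGF libraries correlated at 0.161 to 0.563 and those of different numbers at -0.489 to 0.218 over 15475 genes. Deviations within a group sum to 0, which lowers the different-number values where same-number ones are positive. The ranges overlapped in Detroit 562, where HGF 2 correlated at 0.218 with control 1 and 0.161 with control 2. Pairing by number is thus a reading of the labels, and the main fit leaves it out. The methods state that the culture experiment was repeated, and the labels do not say which library came from which repeat. P values measure the spread between these libraries. No pair of libraries had identical counts. Total counts of 35304770 to 44003970 limit precision for genes with few counts, and floors cover counting error only.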

Additional observations from a re-analysis of the deposited data

Results flagged for a closer look

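In the fit that blocks on replicate number, the response to HGF differed between lines for 16 pairs of a gene and a comparison (edgeR, interaction terms, Benjamini-Hochberg adjusted p below 0.1). Without the block, none of the 16 passed. Adjusted p values without it ranged from 0.366 to 0.554 for the first comparison and from 0.415 to 0.693 for the next. All are differences of log2 fold changes.

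For Detroit 562 minus FaDu, the complex I genes were NDUFV3 at 0.26 (adjusted p = 0.0511), NDUFB9 at 0.23 (adjusted p = 0.0573) and NDUFV2 at 0.18 (adjusted p = 0.0869). In complex III they were UQCRHL at 0.28 (adjusted p = 0.0565), UQCR11 at 0.25 (adjusted p = 0.0677) and UQCRQ at 0.20 (adjusted p = 0.0742). UQCR11 overlaps a gene on its strand with 1.92 times its counts (median over libraries), so its reads cannot be assigned with certainty. COX7A2L of complex IV was at 0.20 (adjusted p = 0.0419). SDHD of complex II was the 1 lower in Detroit 562, at -0.22 (adjusted p = 0.0713). UQCRQ and NDUFV3 were higher with HGF in 3 of 3 pairs of Detroit 562 and lower in 3 of 3 pairs of FaDu.

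For Detroit 562 minus SCC-9, all were lower in Detroit 562. They were NDUFA7 at -0.31 (adjusted p = 0.0646), NDUFA2 at -0.24 (adjusted p = 0.0427), NDUFB1 at -0.23 (adjusted p = 0.0935), NDUFA1 at -0.20 (adjusted p = 0.0881) and NDUFV1 at -0.19 (adjusted p = 0.0723) of complex I, SDHD at -0.20 (adjusted p = 0.0714) and SDHA at -0.17 (adjusted p = 0.0452) of complex II, and COX5B at -0.18 (adjusted p = 0.0714) of complex IV. SDHD was in both comparisons, which share the Detroit 562 libraries. Against these counts of 8 and 8 of 65 stand 19.1% and 26.9% of all genes in the same fit.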

How the results depend on the processing

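Counts of called members stayed within 1.5 times their reported value under DESeq2 (with and without its prior), its size factors in edgeR, no filter and a filter of at least 50 counts in 3 libraries. The replicate block moved the interaction counts to 8 for Detroit 562 against FaDu and 8 against SCC-9, and changed no other count by over 1.5 times. Dropping the minimum fold change moved HGF in Detroit 562 to 6, the mean effect to 4 and untreated Detroit 562 against SCC-9 to 55. With the block as well, added after seeing the data, these were 23, 29 and 57, with 10 in FaDu and 1 in SCC-9. Replicate 3 against 1 in SCC-9 alone gave 0, where COX5B reversed to 0.038.

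Leaving out each library in turn, HGF in Detroit 562 ranged from 0 to 2. Without control replicate 3, NDUFA2 (-0.45, adjusted p = 0.0259) and COX7B2 (1.88, adjusted p = 0.0970, few counts) were called. Without HGF replicate 1, NDUFA7 was (-0.44, adjusted p = 0.0360). The other HGF counts ranged from 0 to 0. Untreated Detroit 562 against FaDu ranged from 32 to 36, Detroit 562 against SCC-9 from 31 to 40, FaDu against SCC-9 from 39 to 41, and replicate 3 against 1 from 27 to 42. Of the values of single named genes, 810 leave-one-out values and 334 others kept direction and side, 15 passed on dropping the minimum, 2 lost the call and 1 reversed, these 3 in SCC-9 alone. Depth limits COX6B2, COX7B2 and NDUFA4L2, with under 10 counts in some libraries.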
